A study of Mus musculus with 6 samples.

Results

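The group described here is 5 genes that act as a protein enters the endoplasmic reticulum (ER) and receives its N-linked glycan: Dpagt1, Ganab, Dad1, Sec62 and Srp54b. They were chosen by gene symbol, and all 5 were found among the 13685 gene rows of the deposited table and passed the filter on low counts, which left 3613 genes. RNA was sequenced from wild-type (genotype WT) C57BL/6 mouse CD4+ T cells of spleen and mesenteric lymph node, in 3 libraries of cells treated with Tunicamycin at 0.15 µg/mL and 3 libraries of Vehicle controls, which the sample titles call untreated. All cells of both groups were depleted of CD25-positive regulatory T cells and cultured for 4 h. Technical replicates is the labels' own term for the libraries of one group; animals and ages are not given, so the p-values rest on spread that may be technical. The comparison asks how these genes respond to tunicamycin, whose target enzyme is the product of Dpagt1.

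Most secreted and membrane proteins are threaded into the ER while they are still being made. The signal recognition particle binds the signal peptide and brings the ribosome to the Sec61 channel, and a ready-made glycan is then moved from a lipid carrier, dolichol, onto asparagine residues of the growing chain. Tunicamycin blocks the first step of building that glycan, so glycoproteins misfold and the unfolded protein response is induced. T cells depend on this route for their receptor chains and most of their surface proteins. Srp54b encodes the signal-binding subunit of the particle and Sec62 a partner of the Sec61 channel. Dpagt1 encodes the first enzyme of glycan assembly and Dad1 a small subunit of the oligosaccharyltransferase. Ganab encodes the catalytic subunit of glucosidase II, which trims the attached glycan.

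The summed estimated counts of the rows used were 10584276, 11211270 and 10868816 in tunicamycin replicates 1, 2 and 3, against 7412151, 7618385 and 9495725 in vehicle replicates 1, 2 and 3, so every tunicamycin library was deeper. The T cell genes Cd3e, Cd3d, Il7r, Ccr7, Cd28 and Cd5 together reached 2603 to 2710 TPM (a level scaled to transcript length and depth) in tunicamycin and 2601 to 2750 TPM in vehicle, while Cd4 itself was not analysed here. Of these 6, 2 had a log2 fold change of tunicamycin over vehicle above 0 and 4 below. Cd3e was at -0.13 (95% interval -0.25 to -0.01, edgeR adjusted p = 0.68). Of 4 plasma cell markers with a row, which mark cells rich in secretory machinery, the summed level was 26.3 to 192 TPM in tunicamycin and 22.2 to 185 TPM in vehicle, set mainly by Igha. Igha was at 86.8, 160 and 21.5 TPM in tunicamycin replicates 1, 2 and 3. In vehicle replicates 1, 2 and 3 it was at 77.8, 152 and 18.6 TPM, so its spread followed the replicate number. Jchain was likewise highest in replicate 2 and lowest in replicate 3 of both groups, whereas Mzb1, at 0 to 21 counts, was not. The neutrophil marker Ly6g was at 0 in every library. The 3 NK cell markers with a row, Ncr1, Gzma and Prf1, summed to 9.82 to 14.6 TPM in tunicamycin and 8.23 to 10.6 TPM in vehicle, mostly from Prf1 (log2 fold change 0.02). In CPM, a count scaled to library size, Gzma alone was at 11.5, 11.3 and 4.98 in tunicamycin and 4.03, 2.8 and 5.66 CPM in vehicle, a log2 fold change of 1.15 (edgeR adjusted p = 0.65), and Ncr1 had 24, 25 and 4 counts in tunicamycin and 5, 0 and 2 in vehicle. The regulatory T cell marker Il2ra was at 7.74 to 14.1 TPM in tunicamycin and 6.87 to 8.41 TPM in vehicle, and the macrophage marker Lyz2 at 3.55 to 10.4 TPM in tunicamycin and 2.94 to 8.52 TPM in vehicle. The part of these cells in the values below was not tested. In bulk RNA, fewer cells of a type and less RNA per cell cannot be told apart.

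Sequence matters most for Srp54b, because the mouse genome holds 3 copies of this gene in a row on chromosome 12. Srp54b (ENSMUSG00000112449) lies at chr12:55155104-55189573, Srp54a at chr12:55080262-55115367 and Srp54c at chr12:55230168-55263836, all on the plus strand of GRCm38. The coding sequences of Srp54b and Srp54a, 1512 bases each, differed at 0 positions, and those of Srp54b and Srp54c differed at 6. Of the 150-base windows of the longest Srp54b transcript, the length of 1 sequenced read, 96.9% were also present letter for letter in a transcript of Srp54a or Srp54c, the only transcripts searched. The 108 windows that were not present lay after the coding sequence, between bases 3172 and 3428 of a transcript of 3646. Windows of the shorter Srp54b transcripts were not compared, so the percentage holds for the longest alone. The stretch below shows 120 coding bases, 846 to 965 counted from the first coding base, taken from GENCODE M21 transcripts because it holds the most differences of any such stretch. Capitals mark the 3 positions at which the copies are not all alike.
Srp54a: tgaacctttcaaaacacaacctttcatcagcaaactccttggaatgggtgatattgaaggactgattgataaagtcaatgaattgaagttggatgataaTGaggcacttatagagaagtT
Srp54b: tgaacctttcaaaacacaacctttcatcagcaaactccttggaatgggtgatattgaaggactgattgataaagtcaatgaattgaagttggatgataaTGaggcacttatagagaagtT
Srp54c: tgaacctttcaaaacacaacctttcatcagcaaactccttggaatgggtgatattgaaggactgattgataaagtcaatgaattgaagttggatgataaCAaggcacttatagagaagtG

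Within this stretch only Srp54c stands apart, and a read from it cannot separate Srp54a from Srp54b. How the estimated counts were divided among the copies is the work of the authors' quantification, so the value of each copy alone is uncertain.

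Levels between genes are compared in TPM, which is scaled to transcript length. Dad1 had the highest mean over the 6 libraries, 128 TPM, followed by Sec62 with 115, Ganab with 103 and Srp54b with 92.6 TPM, with 91.9% to 94.5% of the tested genes below them. Dpagt1 was far lower, with a mean of 8.75 TPM and 52.1% of tested genes below it. The ranges over libraries of neighbours among the upper 4 overlapped, at 115 to 138 TPM for Dad1, 83.4 to 144 for Sec62, 89.6 to 119 for Ganab and 73.5 to 120 for Srp54b. Only the step down to Dpagt1, at 6.83 to 11.6 TPM, was clear of the spread. The enzyme that tunicamycin binds was thus the least abundant transcript of the 5 in every library.

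**Figure D1:**
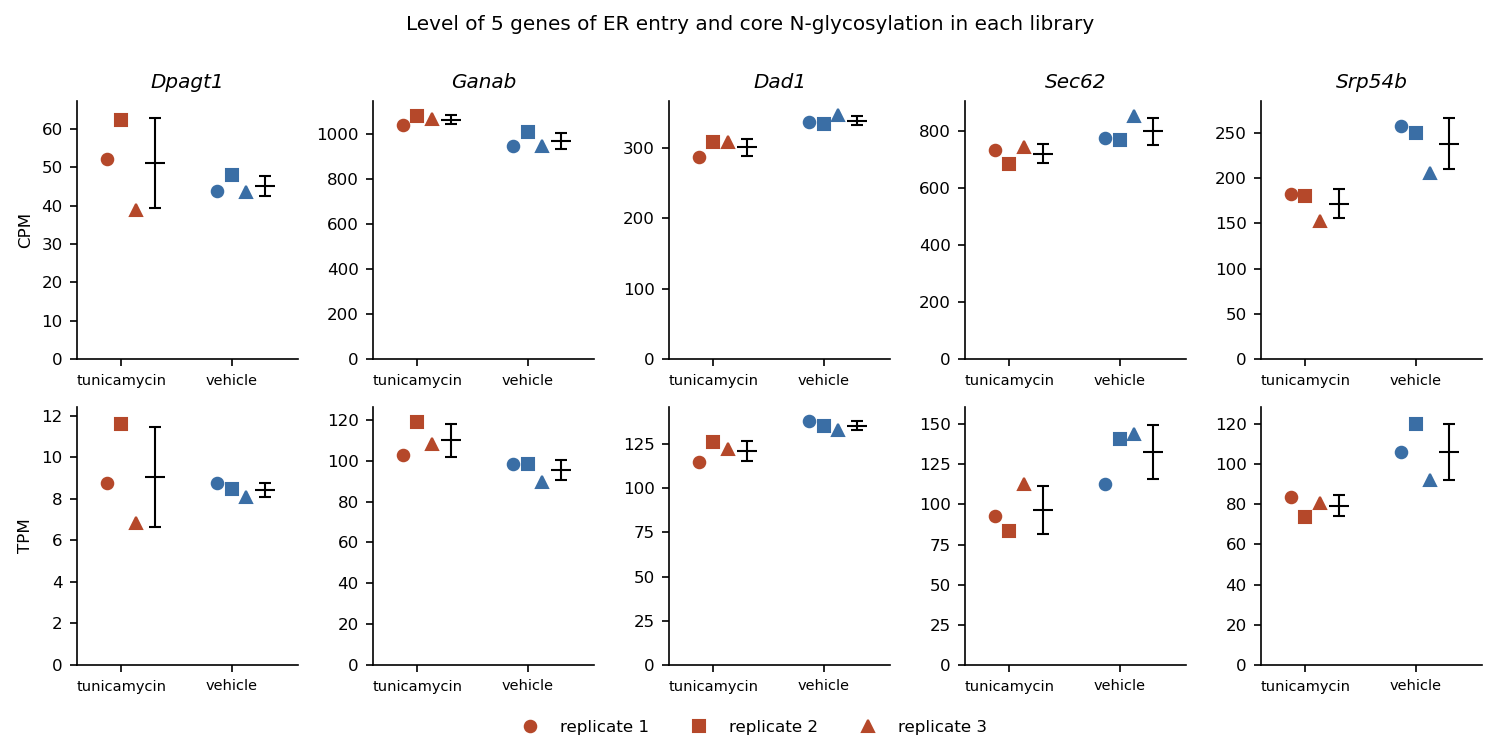
Level of each gene in every library, as CPM (upper row) and TPM (lower row), with tunicamycin left of vehicle; marker shapes give the replicate number and the black bar gives mean ± SD (n = 3). Srp54b was lower in all 3 tunicamycin libraries than in any vehicle library on both scales, while Dpagt1 overlapped on both.

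Across the group, 0 of 5 genes passed the threshold of 0.05 on the adjusted p in edgeR, where 0.083% of all tested genes did. At an unadjusted p under 0.05 there were 4 of 5, against 6.42% of all tested genes, but the genes were chosen with earlier results of these data known, so this share is a description. The log2 fold changes of tunicamycin over vehicle ran from -0.47 for Srp54b to 0.18 for Dpagt1. By DESeq2 1 of the 5, Srp54b, was called (0.637% of all tested genes), and by limma on log2(TPM + 1) 0 were (0.0277% of all). These fits, and the permutation tests below, take no account of the replicate number. With that number as a block in edgeR, Srp54b alone of the 5 was called (0.996% of all tested genes). The edgeR adjusted p there was 0.11 for Sec62, 0.12 for Ganab, 0.16 for Dad1 and 0.8 for Dpagt1.

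On counts, Srp54b lay farthest from 0 of the 5; on TPM and with effective length offsets, Sec62 did. Srp54b was at 182, 180 and 153 CPM in tunicamycin replicates 1, 2 and 3, against 258, 250 and 206 CPM in vehicle replicates 1, 2 and 3. All 3 tunicamycin libraries lay below all 3 vehicle libraries, and 12.6% of tested genes had CPM groups without overlap in one direction or the other. The mean was 172 ± 16.5 CPM in tunicamycin and 238 ± 27.8 CPM in vehicle (SD, n = 3 each), giving a log2 fold change of -0.47 (SE 0.10, edgeR adjusted p = 0.23, unadjusted p = 0.00051). In TPM the values were 83.6, 73.5 and 80.5 in tunicamycin and 106, 120 and 92.2 in vehicle, again without overlap, which held for 13.9% of tested genes in TPM. The limma log2 fold change on log2(TPM + 1) was -0.41 (SE 0.10, limma adjusted p = 0.38).

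The libraries of the same number deviated together, and Srp54b was lower in tunicamycin within each of the 3 numbers. With the replicate number as a block, Srp54b was called lower (log2 fold change -0.47, SE 0.07, edgeR adjusted p = 0.0011), where 0.996% of all tested genes were called. It was also called lower by DESeq2 (adjusted p = 0.0091) and by edgeR without the filter on low counts (adjusted p = 0.0061, 0.237% of all genes). Adding effective length offsets to the block left it short of the threshold (edgeR adjusted p = 0.24), where 0.166% of all tested genes passed. Single libraries were left out only in edgeR without the block, which was already short of the threshold with all libraries (edgeR adjusted p = 0.23). There the edgeR adjusted p ran from 0.055 to 1, and no fit that called Srp54b was rerun in this way. Over the 17 alternatives that treat the copy alone its adjusted p ran from 0.0011 to 1 and its log2 fold change from -0.57 to -0.39.

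The other 2 copies had smaller estimates in counts. Srp54a was at 178, 171 and 197 CPM in tunicamycin and 131, 175 and 183 CPM in vehicle, with overlapping groups and a log2 fold change of 0.16 (95% interval -0.10 to 0.42, edgeR adjusted p = 0.89). Srp54c was at 301, 298 and 329 CPM in tunicamycin and 338, 337 and 316 CPM in vehicle, a log2 fold change of -0.10 (95% interval -0.24 to 0.05, edgeR adjusted p = 0.88). When the counts of the 3 copies were summed before the fit, the family's log2 fold change was -0.14 (SE 0.05, edgeR adjusted p = 0.63), against -0.47 for Srp54b alone.

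Within the family, Srp54b made up 27.6%, 27.7% and 22.5% of the summed counts in tunicamycin replicates 1, 2 and 3, against 35.4%, 32.8% and 29.2% in vehicle replicates 1, 2 and 3. The share of Srp54a was 26.9%, 26.3% and 29.1% in tunicamycin and 18%, 22.9% and 25.9% in vehicle. Both shares separated the groups, in opposite directions, by -6.57 percentage points for Srp54b and 5.15 for Srp54a (2-sided exact permutation test, p = 0.1 for each, the smallest that 3 against 3 allows). The count share of Srp54c overlapped, at means of 46.6% in tunicamycin and 45.2% in vehicle. In TPM the picture for Srp54a turned round: it was at 37.3, 31.1 and 41.9 TPM in tunicamycin and 47.6, 60 and 44.7 TPM in vehicle, all lower in tunicamycin (log2 fold change -0.45, limma adjusted p = 0.47). The summed TPM of the 3 copies was 186, 170 and 193 in tunicamycin and 228, 253 and 203 in vehicle, without overlap. Of that sum Srp54b took 45%, 43.1% and 41.7% in tunicamycin and 46.4%, 47.5% and 45.3% in vehicle, so its share differed by -3.1 percentage points in TPM (2-sided exact permutation test, p = 0.1). The TPM share of Srp54c was 34.9%, 38.6% and 36.6% in tunicamycin and 32.7%, 28.7% and 32.8% in vehicle, a difference of 5.27 points without overlap (2-sided exact permutation test, p = 0.1). That of Srp54a overlapped and differed by -2.17 points, opposite in sign to its count share. The family shares were examined after the values had been seen.

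**Figure D2:**
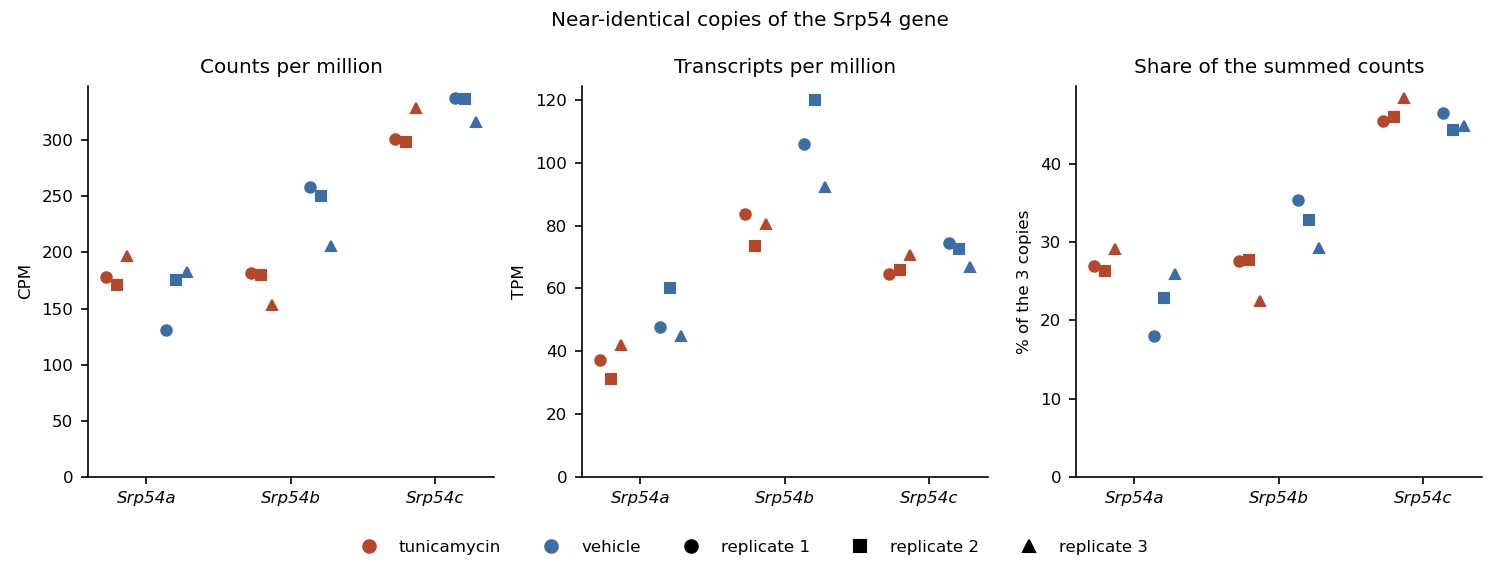
The 3 Srp54 copies in CPM, in TPM and as a percentage of their summed counts, with each of the 6 libraries as a point and tunicamycin left of vehicle. Srp54b lies lower in tunicamycin in all 3 panels, whereas Srp54a overlaps between groups in CPM and is lower in tunicamycin in TPM.

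Sec62 (ENSMUSG00000027706, chr3:30792875-30821263, plus strand, GRCm38) works at the Sec61 channel, where it helps small and late-targeted precursors enter the ER. It was at 735, 684 and 746 CPM in tunicamycin replicates 1, 2 and 3, against 777, 770 and 855 CPM in vehicle replicates 1, 2 and 3. The groups did not overlap, but the gap between the nearest libraries was small beside the spread within vehicle. The mean was 722 ± 33.5 CPM in tunicamycin and 800 ± 47.1 CPM in vehicle (SD, n = 3 each), or -0.15 as a log2 fold change (SE 0.06, edgeR adjusted p = 0.66).

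On the TPM scale the difference of Sec62 was about 3 times as large on the log scale. Sec62 was at 93, 83.4 and 113 TPM in tunicamycin and 113, 141 and 144 TPM in vehicle, where tunicamycin replicate 3 and vehicle replicate 1 overlapped. The log2 fold change on log2(TPM + 1) was -0.45 (SE 0.13, limma adjusted p = 0.42), and with effective length offsets in edgeR it was -0.52 (SE 0.14, edgeR adjusted p = 0.42), where 0.0554% of all tested genes were called. Sec62 was called under none of the 17 alternatives tried for it, with a lowest adjusted p of 0.11 under the replicate block.

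The count and the TPM of a gene differ by its effective length, which is averaged over the gene's transcripts in that library. The effective length that the deposited pair implies was scaled so that 437 genes with a single annotated transcript had a median equal to their annotated length. For Sec62 it was 2589, 2747 and 2155 bases in tunicamycin replicates 1, 2 and 3, against 2186, 1694 and 1794 bases in vehicle replicates 1, 2 and 3. The ratio of tunicamycin to vehicle was 1.32 (log2 difference 0.40, 2-sided exact permutation test, p = 0.2), and 1.42% of 2182 genes lay at least as far from 0 in either direction. GENCODE M21 gives Sec62 3 transcripts of 558 to 3967 bases, 1 of them coding and 1 with a retained intron. The sources used here do not say which of them the estimates rest on.

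The other genes had smaller shifts in effective length, except for Srp54a. Dad1 was at 815, 820 and 825 bases in tunicamycin and 774, 770 and 784 bases in vehicle, which did not overlap, but neither did 48.9% of all genes measured in this way. Dpagt1 was at 1949, 1807 and 1865 bases in tunicamycin and 1582, 1759 and 1620 bases in vehicle, a log2 difference of 0.18 (2-sided exact permutation test, p = 0.1, the smallest possible). Ganab and Srp54b overlapped, with log2 differences of 0.02 and 0.04. Srp54b was at 714, 821 and 620 bases in tunicamycin and 775, 645 and 674 bases in vehicle, far below the 3646 bases of its longest transcript; GENCODE M21 gives it 4 transcripts, the shortest of 428 bases. Srp54a had 1562, 1845 and 1539 bases in tunicamycin and 875, 902 and 1234 bases in vehicle, a ratio of 1.66, and 0.229% of genes lay at least as far from 0. Srp54a thus had a positive estimate in counts and a negative one in TPM, and neither passed the threshold.

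**Figure D3:**
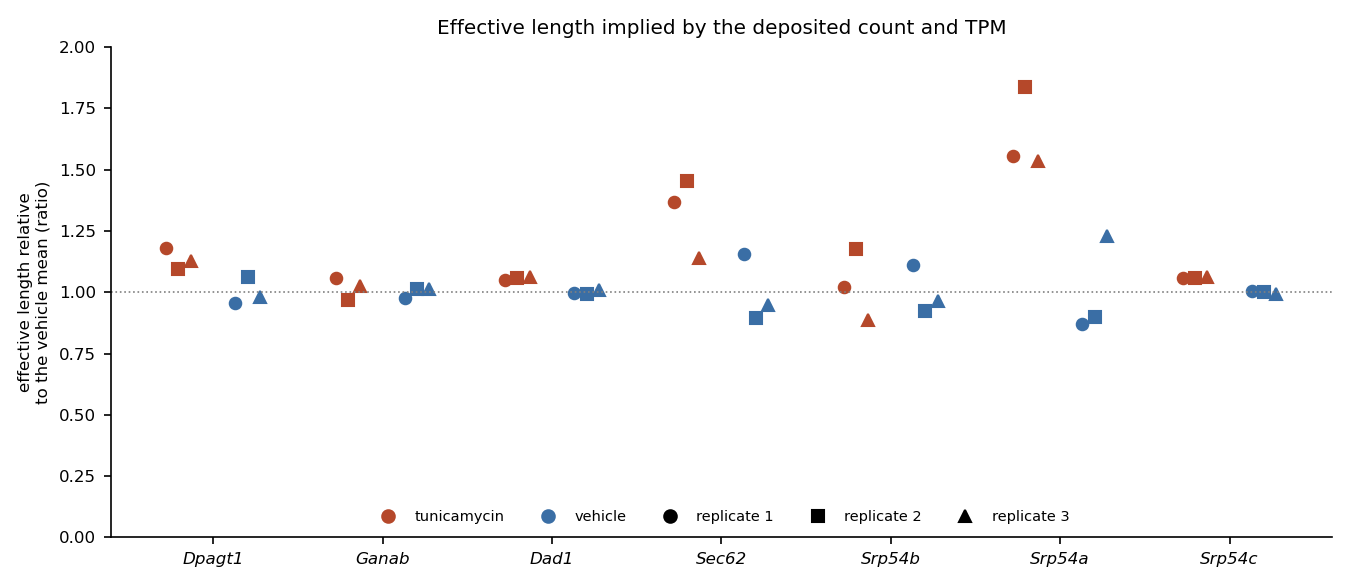
Effective length of the 5 genes and the other 2 Srp54 copies in each library, as a ratio to the mean of the vehicle libraries (dotted line at 1), with tunicamycin left of vehicle. Sec62 and Srp54a lie highest in tunicamycin, with mean ratios of 1.32 and 1.66, while Ganab and Srp54b scatter around the line.

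Dpagt1 (ENSMUSG00000032123, chr9:44326019-44333900, plus strand, GRCm38) encodes the GlcNAc-1-phosphate transferase that starts the lipid-linked glycan and is the direct target of tunicamycin. It was at 52.1, 62.3 and 38.9 CPM in tunicamycin replicates 1, 2 and 3, against 43.7, 48 and 43.5 CPM in vehicle replicates 1, 2 and 3. The tunicamycin libraries spanned the whole vehicle range: replicate 2 was the highest of the 6 and replicate 3 the lowest. The mean was 51.1 ± 11.7 CPM in tunicamycin and 45.1 ± 2.56 CPM in vehicle (SD, n = 3 each). The log2 fold change was 0.18 (95% interval -0.18 to 0.55, edgeR adjusted p = 0.92), so a change in either direction of the size seen for Ganab or Dad1 lies within the interval.

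The Dpagt1 estimate rested on single libraries. Without tunicamycin replicate 3 its log2 fold change was 0.35, and without tunicamycin replicate 2 it was 0.02 (edgeR adjusted p = 1 for both). In TPM it was at 8.76, 11.6 and 6.83 in tunicamycin and 8.78, 8.46 and 8.09 in vehicle, a log2 fold change of 0.06 (95% interval -0.37 to 0.50, limma adjusted p = 0.95). Estimated counts of Dpagt1 were 555, 712 and 430 in tunicamycin and 325, 360 and 399 in vehicle, the fewest of the 5 genes. An annotated antisense gene, Gm48853, overlaps Dpagt1 by 1217 bases, and another, 4933429H19Rik, overlaps Sec62 by 690 bases. Neither was analysed here, and the sources used here do not say whether counting used strand.

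Dad1 (ENSMUSG00000022174, chr14:54235479-54254104, minus strand, GRCm38) encodes a subunit of the oligosaccharyltransferase, the complex that moves the glycan onto the protein. The gene lies 11272 bases from Trac, the constant region of the T cell receptor alpha chain. Dad1 was at 287, 308 and 308 CPM in tunicamycin replicates 1, 2 and 3, against 336, 334 and 346 CPM in vehicle replicates 1, 2 and 3. The groups did not overlap, and the libraries of each group lay close together. The mean was 301 ± 12 CPM in tunicamycin and 339 ± 6.09 CPM in vehicle (SD, n = 3 each), or in log2 fold change -0.17 (95% interval -0.30 to -0.04, edgeR adjusted p = 0.61). In TPM it was at 115, 126 and 122 in tunicamycin and 138, 135 and 133 in vehicle, a log2 fold change of -0.16 (limma adjusted p = 0.48). The size and direction were thus alike on both scales, and none of the 17 alternatives called it.

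Ganab (ENSMUSG00000071650, chr19:8898071-8916672, plus strand, GRCm38) encodes the enzyme that removes the inner glucose residues of the attached glycan and so times the binding of glycoproteins to calnexin and calreticulin. It was at 1042, 1083 and 1069 CPM in tunicamycin replicates 1, 2 and 3, against 948, 1010 and 948 CPM in vehicle replicates 1, 2 and 3. All tunicamycin libraries lay above all vehicle libraries. The mean was 1065 ± 20.5 CPM in tunicamycin and 968 ± 35.6 CPM in vehicle (SD, n = 3 each), or in log2 fold change 0.14 (95% interval 0.02 to 0.25, edgeR adjusted p = 0.64). In TPM it was at 103, 119 and 108 in tunicamycin and 98.2, 98.2 and 89.6 in vehicle, a log2 fold change of 0.20 (95% interval 0.04 to 0.37, limma adjusted p = 0.54). None of the 17 alternatives called it, with a lowest adjusted p of 0.12 under the replicate block.

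**Figure D4:**
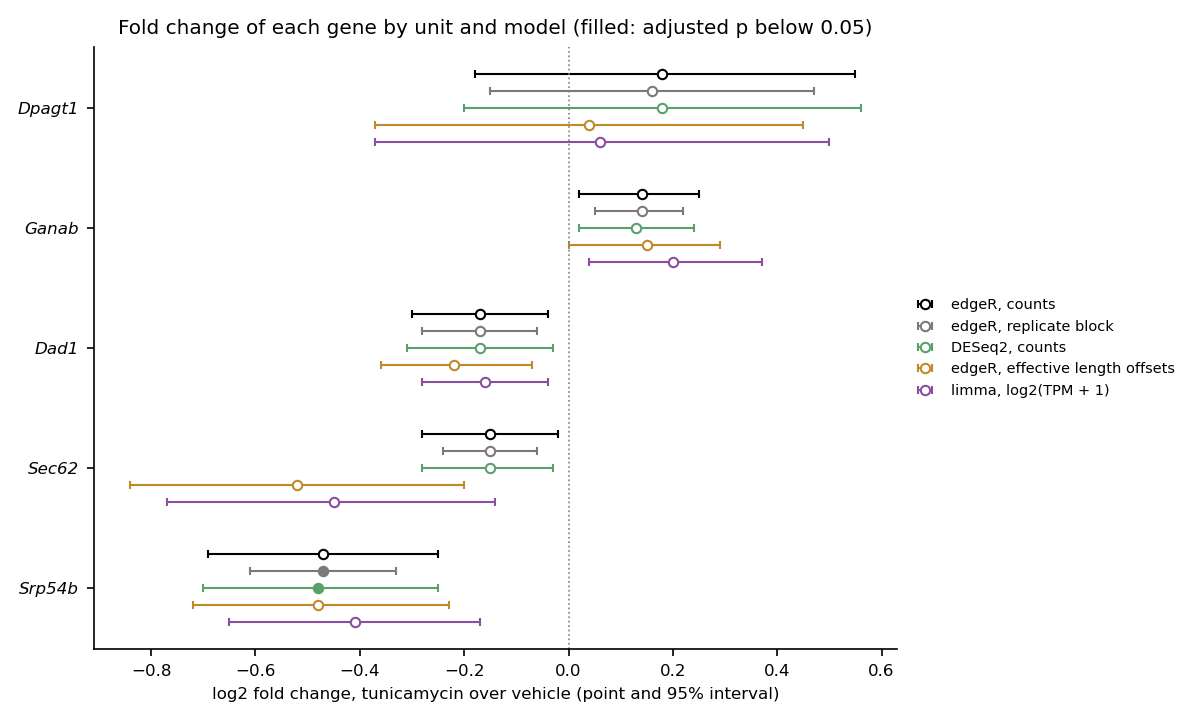
The log2 fold change of tunicamycin over vehicle for each gene, with its 95% interval, from 3 fits on counts, from counts with effective length offsets and from TPM; filled points have an adjusted p below 0.05. Srp54b lies between -0.48 and -0.41 in all 5 fits shown, and Sec62 is at -0.15 in the 3 fits on counts alone but at -0.52 and -0.45 once effective length enters.

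A ratio of 2 genes within a library does not depend on how libraries are scaled, so all 10 pairs of the group were compared in this way. The log2 ratio of Ganab to Dad1 was 1.79 to 1.86 in tunicamycin and 1.46 to 1.59 in vehicle, a difference of 0.31. That of Ganab to Sec62 was 0.50, 0.66 and 0.52 in tunicamycin replicates 1, 2 and 3, against 0.29, 0.39 and 0.15 in vehicle replicates 1, 2 and 3, a difference of 0.29. That of Ganab to Srp54b differed by 0.61 and that of Dpagt1 to Srp54b by 0.63, both without overlap between groups. For each of these 4 ratios the exact permutation test gave p = 0.1, the smallest 3 against 3 allows, and 0.25 after Benjamini-Hochberg adjustment over the 10 pairs, so none could pass. The other 6 ratios overlapped. In CPM, Ganab lay higher and Dad1, Sec62 and Srp54b lower in every tunicamycin library than in any vehicle library. The count ratios of Ganab to these genes therefore had to separate the groups and restate those values. In TPM the same was fixed for Dad1 and Srp54b, but not for Sec62, whose groups overlapped. From TPM, the ratios of Ganab to Dad1, Sec62 and Srp54b again separated the groups, by 0.36, 0.66 and 0.62, whereas that of Dpagt1 to Srp54b overlapped, with a difference of 0.48 (2-sided exact permutation test, p = 0.2).

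The profile of each gene over the 6 libraries, in log2 CPM, was compared with those of 1903 other tested genes averaging 5 log2 CPM or more. It is a description in which all points share libraries and depth. The highest r of so many genes over 6 libraries is large by selection, so no relation is read from it. The nearest profiles to Dpagt1 were Abtb2, Dand5 and Anks3 (Pearson r of 0.982, 0.927 and 0.924, n = 6 libraries). Those nearest to Ganab were Tmem126b, Gm14085 and Slc38a9 (0.993, 0.987 and 0.982). Nearest to Dad1 were Calr, which encodes the glycan-binding chaperone calreticulin, then Tspyl1 and the unnamed ENSMUSG00000118665 (0.987, 0.961 and 0.955). For Sec62 they were the ribosomal protein genes Rps7 and Rpl4 and then Slfn1 (0.995, 0.986 and 0.981). Srp54b was most like Cd3e, a chain of the T cell receptor complex, then Bicra and Pip4k2b (0.985, 0.978 and 0.977).

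The rest of the pathway was described with 5 lists of 87 genes, of which 21 had a row and all 21 were tested. None of the 21 was called by edgeR or by limma on log2(TPM + 1), and DESeq2 and the replicate block called Srp54b alone. The median log2 fold change was -0.06 over the 21 genes and -0.04 over the 16 that are not among the 5, beside 0.00 over all tested genes. Of the 16, 2 had an unadjusted p under 0.05 in edgeR, Srp9 and Calr, where 6.42% of all tested genes did. Most of the pathway was not analysed here, among it the Sec61 channel subunits, Stt3a, Stt3b and Canx.

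Of 4 targeting genes, Srp9, which encodes a subunit of the particle's Alu domain, was at 341, 315 and 361 CPM in tunicamycin and 392, 355 and 406 CPM in vehicle, with overlap. Its log2 fold change was -0.18 (95% interval -0.34 to -0.02, edgeR adjusted p = 0.65). Of 3 genes of translocation and signal peptide removal, 1 of which is Sec62, all lay below 0, as did 1803 of 3613 tested genes. Spcs2, a signal peptidase subunit, was at -0.09 (95% interval -0.22 to 0.04) and Tram2 at -0.15 (95% interval -0.44 to 0.14), with 0 inside both intervals. The summed TPM of the 4 targeting genes was 299 to 331 in tunicamycin and 358 to 385 in vehicle. Srp9 and the 3 Srp54 copies make up these 4, so the sum contains the family sum given above. Srp9 alone overlapped in TPM, at means of 133 in tunicamycin and 147 in vehicle.

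Of the genes that build the lipid-linked glycan, 5 were tested. Besides Dpagt1, the mannosyltransferase gene Alg2 was at 0.04 (95% interval -0.17 to 0.25), the glucosyltransferase gene Alg10b at -0.06 (95% interval -0.21 to 0.10), the dolichol kinase gene Dolk at -0.09 and Gnpnat1, of UDP-GlcNAc synthesis, at 0.04. Of 5 oligosaccharyltransferase subunits, Dad1 lay lowest, with Rpn1 at -0.08, Ostc at -0.03, Ost4 at 0.09 and Ddost at 0.12, all from counts. Ddost was at 323, 295 and 325 CPM in tunicamycin against 283, 273 and 313 CPM in vehicle, with overlap (edgeR adjusted p = 0.84). In TPM it was at 42.9, 40.3 and 43.3 in tunicamycin against 36.4, 34.5 and 38.2 in vehicle, without overlap. The subunits of this 1 complex therefore had estimates on both sides of 0.

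Of 4 genes of glycan trimming and the calnexin cycle, Mogs, which encodes glucosidase I and acts just before glucosidase II, was at 0.01 (95% interval -0.15 to 0.17), as was the N-glycanase gene Ngly1. Calr was at 1444, 1506 and 1492 CPM in tunicamycin and 1601, 1617 and 1662 CPM in vehicle, without overlap, a log2 fold change of -0.14 (edgeR adjusted p = 0.63). In TPM the 2 groups of Calr overlapped, at means of 200 in tunicamycin and 205 in vehicle. Of 5 tested genes known to respond to tunicamycin, 0 passed in edgeR, DESeq2 or limma and 0 had an unadjusted p under 0.05 in edgeR. Their log2 fold changes lay above 0 for 3 and below 0 for 2, with a median of 0.01. The transcription factor gene Atf4 was at -0.05 (95% interval -0.19 to 0.10), and the ER co-chaperone genes Dnajc3 and Dnajb9 were at 0.01 (95% interval -0.13 to 0.15) and 0.05 (95% interval -0.14 to 0.24). Sesn2 was at 0.02 and Creld2, an ER chaperone gene, at -0.15 (95% interval -0.43 to 0.13). Chac1, at 3, 54 and 7 counts in tunicamycin and 4, 0 and 0 counts in vehicle, did not pass the filter on low counts, while Hspa5, Ddit3 and Xbp1 were not analysed here.

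**Figure D5:**
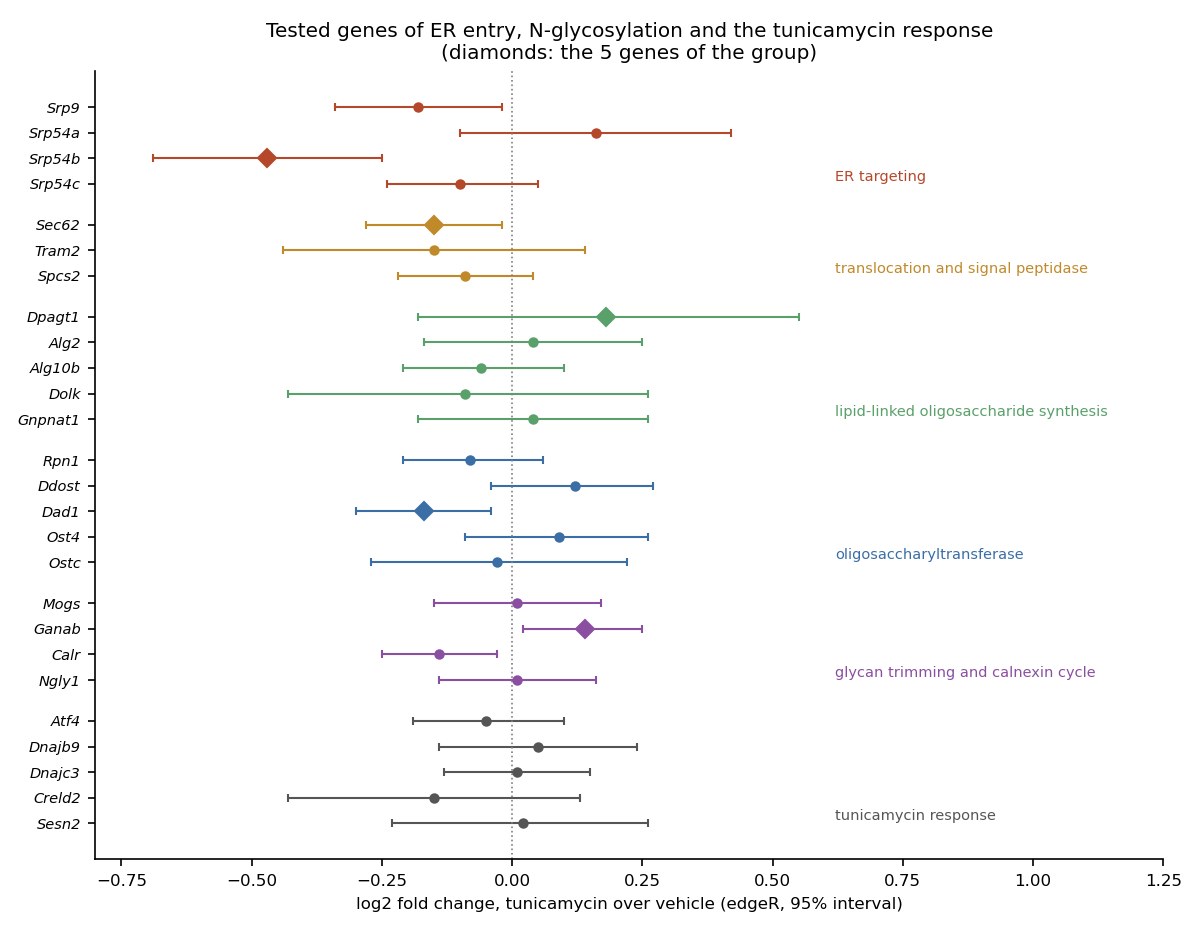
The log2 fold change with its 95% interval for the tested genes of 5 lists and for 5 genes of the tunicamycin response, from edgeR on counts; diamonds mark the 5 genes described here. Srp54b, at -0.47, is the farthest from 0, and estimates within the oligosaccharyltransferase list run from -0.17 to 0.12.

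Promoter sequence was searched for elements known from the unfolded protein response, in RefSeq windows (GRCm38.p6) from 250 bases before to 50 bases after the start. Windows were matched for Ganab, Dad1, Sec62 and Srp54b. The ER stress response element, CCAAT and CCACG set 9 bases apart and bound by ATF6, was found in none of these 4 windows on either strand, and in 0.119% of 32851 windows of the same length. The element TGACGTGG of XBP1 (0.676% of windows), the cyclic AMP element TGACGTCA (1.79%) and the ATF4 element TGATGNAA (3.97%) also had no match in the 4. The short motif CCAAT, which is part of the first element, had matches in Ganab, Dad1 and Srp54b and is in 37.4% of windows. The remaining part, CCACG, had 1 match each in Ganab and Dad1 and is in 32.8% of windows. The Dad1 matches of both motifs lay inside the gene as GENCODE M21 places it, whose start lies ahead of the RefSeq start. The bases ahead of the start are shown for the gene that lay higher in every tunicamycin library and the gene called lower in some of the fits, Ganab (chr19:8897807-8898056) and Srp54b (chr12:55154854-55155103), both on the plus strand, with matches in capitals.
Ganab: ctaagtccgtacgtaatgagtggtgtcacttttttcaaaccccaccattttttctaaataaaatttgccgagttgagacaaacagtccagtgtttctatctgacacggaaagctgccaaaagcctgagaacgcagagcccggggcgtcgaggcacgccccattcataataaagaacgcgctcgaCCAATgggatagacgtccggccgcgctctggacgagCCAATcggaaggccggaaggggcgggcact
Srp54b: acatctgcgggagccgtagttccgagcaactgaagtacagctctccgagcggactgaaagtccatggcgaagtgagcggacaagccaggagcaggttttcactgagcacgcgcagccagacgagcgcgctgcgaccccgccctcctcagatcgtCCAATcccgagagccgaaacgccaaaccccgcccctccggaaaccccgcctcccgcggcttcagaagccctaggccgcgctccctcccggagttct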

How the data were processed

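RNA-seq covered 3 tunicamycin and 3 vehicle libraries. The authors deposited estimated counts per gene, partly fractional and not scaled to depth, and TPM values for the same rows. Salmon, bcl2fastq, DESeq2 and the build GRCm39 appear in the submitters' processing notes, without version or role. Symbols and positions came from GENCODE M21 and RefSeq on GRCm38 and were not converted. The deposited estimated counts were rounded and tested in edgeR 4.0.16 (R 4.3.3): filterByExpr on the groups, TMM factors, robust quasi-likelihood F test, 2-sided, Benjamini-Hochberg adjustment over 3613 genes. TPM was tested with limma 3.58.1 on log2(TPM + 1), and DESeq2 1.42.0 was an alternative. CPM uses TMM-scaled library sizes. Effective length is deposited count over TPM, for genes with at least 100 counts in every library. The edgeR fit was tested on simulated data with independent libraries. Libraries of the same number were not linked in it, so it does not bear on how the fit handles such links.

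Members and lists were chosen with earlier results of these data known. Named genes are the 5 members, and per list those past the threshold, the 3 highest in TPM and those with an unadjusted p under 0.05. A few more are named to complete a list, chosen after their values were seen. Libraries of a group differed beyond sampling noise (chi-square per degree of freedom 15.8 to 36.1). Deviations from the group mean correlated between same-numbered libraries (r = 0.303, 0.306 and 0.316 across 1904 genes, which are not independent replicates). On this ground the numbers were taken to pair the libraries. Between the others r was -0.231 to -0.0484. Deviations cancel out within a group, so negative values follow from the positive ones and are no added ground. The labels do not say what a number shares.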

Additional observations from a re-analysis of the deposited data

How the results depend on the processing

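The log2 fold changes of the 5 genes kept their sign under all 17 alternatives run for each. Leaving out each library gave 0.02 to 0.35 for Dpagt1, 0.12 to 0.17 for Ganab, -0.19 to -0.14 for Dad1, -0.17 to -0.10 for Sec62 and -0.57 to -0.39 for Srp54b. Srp54b passed at -0.48 in DESeq2, at -0.47 without the filter on low counts and at -0.47 with the replicate block; the block changed no other call among the 5 genes or the 6 lists. Calls over the targeting list were 1 in each of these 3 settings, against 0 in edgeR as run. Over all genes, edgeR called 2 higher and 1 lower. The counts were 12 and 11 in DESeq2, 14 and 22 with the block, 10 and 6 without the filter, and 3 and 3 with block and effective length offsets. In limma on log2(TPM + 1) 1 was higher and 0 lower. The number lower was 0 with log2(TPM + 0.1), no composition factor, no robust estimation or effective length offsets, and 2 with DESeq2 size factors or a mean of at least 100 counts. Leaving out a library gave 1 to 4 higher (1 without vehicle replicate 2, 4 without vehicle replicate 3) and 0 to 1 lower (0 without tunicamycin replicate 2 or 3, or vehicle replicate 1 or 2). Of the ratios, from TPM that of Dpagt1 to Ganab was -0.14 (0.02 from counts), Dad1 to Sec62 0.30 (-0.02) and Sec62 to Srp54b -0.05 (0.32). With a library left out the first ran from -0.12 to 0.21 and the second from -0.08 to 0.03. The causes were not tested. Of the 5 genes, Dpagt1 had the fewest counts, 325 to 712 per library.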
